A study of Mus musculus with 95 samples.

Results

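Gene expression in HPC-1 cells was compared between the early window after transplant, pooled from 3 and 4 weeks, and steady state. HPC-1 is the name in the labels for a population of mouse blood progenitors sorted from bone marrow. The members were the libraries whose titles give HPC-1 at 3 or 4 weeks or HPC-1 at steady state, which came to 14 of the 95 libraries in the series. The early window held 6 libraries, 3 from each week. The cells came from lethally irradiated recipients (900 cGy) that had received 8000 LSK cells, which are lineage-negative marrow cells carrying Sca-1 and Kit. The 8 steady-state libraries are labelled untreated. All the mice are labelled as strain B6.SJL, aged 8 to 12 weeks, and the labels do not say whether the sorted cells were of donor or of recipient origin. Bones of the spine, hip and leg were crushed, Kit-positive cells were enriched and sorted, and RNA was copied with SMART-Seq v4, a method for small inputs, before Nextera XT library preparation and bulk sequencing.

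HPC-1 cells are known as LSK cells with CD48 and without CD150, a multipotent progenitor compartment that lies downstream of the haematopoietic stem cell (HSC) and gives rise to myeloid and lymphoid progenitors. After irradiation and transplant, progenitors of this kind divide to rebuild the blood system, and interferons and other inflammatory cytokines are known to act on them. Interferon-gamma induces a family of GTPases that defend cells against intracellular pathogens, and chemokines such as Ccl3 attract leukocytes and can restrain progenitor division.

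The libraries held 4179040 to 5929923 counts in the early window and 3990766 to 5585342 at steady state. Genes with a count numbered 11971 to 15697 in the early window and 12641 to 15384 at steady state. Levels below are CPM, counts scaled to the library total. The labels give an identical CD48-negative, CD150-positive gate for every population, so the HPC-1 label was checked against the sort markers. Cd48 ranged from 622 to 1370 CPM in the early window and from 534 to 2000 CPM at steady state, while in HSC it did not exceed 65.6 CPM. Slamf1, which encodes CD150, had a median of 1.84 CPM early and 0 CPM at steady state, below the expression filter. Flt3, Cd34, Kit and Ly6a (Sca-1) were present in all 14 libraries. None of the 7 sort markers tested was called, which says little for so few genes, since 0.271% of all genes tested were called. High Cd48 with Slamf1 near 0 is the pattern known for HPC-1, and the reverse of the gate given in the labels. The summed level of the 10 neutrophil markers was 5.03, 113 and 1170 CPM (lowest, median, highest) early and 2.74, 58.7 and 4280 CPM at steady state. For the 12 monocyte and macrophage markers it was 374 to 909 CPM early and 580 to 1120 CPM at steady state, for the 12 T and NK cell markers 527 to 1110 and 534 to 1040 CPM, and for the 10 mature B and plasma cell markers 247 to 508 and 170 to 467 CPM. Ms4a1, Cd22, Cd8a, Prf1, Col3a1 and Pdgfra had no count in any of the 14 libraries, and among T and NK cell markers only Nkg7, at medians of 700 CPM early and 830 CPM at steady state, was above 100 CPM. Granule genes of neutrophils varied between libraries, S100a8 from 1.01 to 287 CPM early and from 0 to 996 CPM at steady state.

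The groups also differed in technical measures of the whole library. The share of mitochondrial counts was 1.02 ± 0.34% in the early window and 1.68 ± 0.54% at steady state (SD, n = 6 and n = 8, two-sided exact permutation p = 0.0266, adjusted over 6 measures 0.0399). The count-weighted GC content of the transcripts was 47.8 ± 0.18% and 47.4 ± 0.28% (exact permutation p = 0.00766, adjusted 0.0399), and their mean length 2896 ± 157 and 2692 ± 134 bases (exact permutation p = 0.021, adjusted 0.0399). Steady-state replicates 1 and 4 had values like those of the early libraries on all of these. Across genes, which are not independent, the log2 change correlated with transcript GC content (Spearman 0.24) and length (0.221). Values with each library's trend on GC content and length removed are therefore given beside results, under the name GC and length offsets. Steady-state replicate 7 had nearly the same counts as an HPC-2 steady-state library (chi-square per degree of freedom 2.01, against 15.1 for the next closest of 1225 pairs), and the calls without it are also given.

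In the early window 30 of 11067 genes tested passed an adjusted p of 0.05 (0.271%; edgeR quasi-likelihood test with Benjamini-Hochberg adjustment), and such genes are named as called. Of these, 8 were higher (0.0723%) and 22 were lower (0.199%) than at steady state. The excess of lower calls did not hold in every setting: 14 genes were higher and 14 lower with no filter, 334 and 340 with voom and sample weights, 4 and 2 with all HPC-1 libraries in the fit, and 4 and 1 for 4 weeks alone, against 335 and 579 with DESeq2. At an unadjusted p under 0.05, 905 of the 11067 genes were higher and 1171 lower. The log2 change was positive for 51.1% of all genes tested, with a median of 0.02. Counts of list members below are to be read against these shares. The levels of the groups did not overlap for 22 of the 30 called genes, against 83 of all genes tested (0.75%), a count that rests on the same values as the call. Separate animals are not stated for the libraries of either group, and p therefore measures only how far these libraries spread, which may be technical. In bulk RNA, fewer cells of a type and less RNA per cell cannot be told apart.

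The number of called genes depended on single libraries. It was 0 without 4 weeks replicate 3, 3, 4 and 5 without 3 weeks replicates 1, 2 and 3, and 35 and 30 without 4 weeks replicates 1 and 2. It was 382 and 134 without steady-state replicates 1 and 4, and 6, 9, 7, 4, 9 and 6 without steady-state replicates 2, 3, 5, 6, 7 and 8. The 9 called without steady-state replicate 7 were Ubqln1, Mcm5, Tceal8, Ldhb, Klk8, Serpinf1, Rabgap1l, Ccl3 and Kynu. Of the other 21 genes, 20 kept their direction at an adjusted p of 0.0524 to 0.0867, and Gm10482 did not pass the expression filter. With the GC and length offsets 17 genes were called, 15 of them among the 30. With the mitochondrial share as a covariate 2 genes were called, of which 1, Ldhb, was among the 30. Serpina3g, Iigp1, Ccl3 and Tceal8 were not called in that fit. No called gene changed direction in any of these fits.

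**Figure D1:**
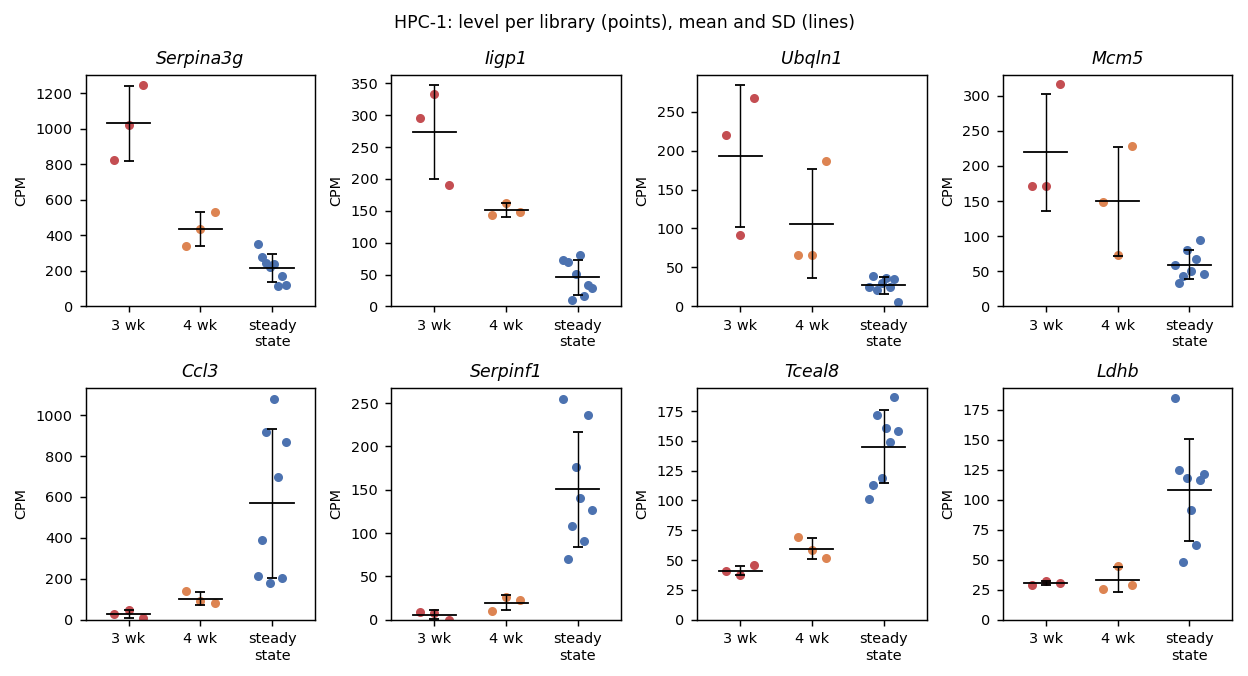
Level in CPM of 4 genes called higher and 4 called lower, by library: HPC-1 at 3 weeks (red), 4 weeks (orange) and steady state (blue), with the mean (horizontal line) and SD (bar) of each group. The 3-week libraries lie farthest from steady state for Serpina3g and Ccl3, and Tceal8, Ldhb and Serpinf1 show no overlap with steady state.

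Serpina3g rose in the early window and was the most abundant of the genes called higher, at 734 ± 357 CPM early and 217 ± 80.6 CPM at steady state (SD, n = 6 and n = 8). It encodes a serine protease inhibitor of the mouse Serpina3 cluster that also inhibits lysosomal cathepsins. The gene lies on the plus strand at chr12:104236245-104241939 (GRCm38). It had 826, 1020 and 1250 CPM in the 3-week libraries and 343, 436 and 533 CPM in the 4-week libraries, against a lowest, median and highest value of 114, 231 and 352 CPM at steady state. All 3-week libraries were far above steady state, and 4 weeks replicate 1 lay within the steady-state range. The log2 change was 1.58 ± 0.29 (SE, n = 6 and n = 8, edgeR adjusted p = 0.0311), and 1.60 with the GC and length offsets (adjusted p = 0.0337). The call held in 4 of 14 fits that left out a library, with an adjusted p of up to 0.0965, and was lost without steady-state replicate 7 (log2 change 1.54, adjusted p = 0.0544). Against steady state, 3 weeks alone gave 2.07 (adjusted p = 0.0125) and 4 weeks alone 0.85 (adjusted p = 0.968).

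Among the rest of the Serpina3 cluster, Serpina3f had 14.7, 49.2 and 129 CPM (lowest, median, highest) in the early window and 0, 13.7 and 18.4 CPM at steady state. Its log2 change of 2.43 ± 0.79 was not called (edgeR adjusted p = 0.131). The other 9 cluster genes listed did not exceed 0.461 CPM in any of the 14 libraries. Genes of this cluster are near-identical in places, so that reads may be split or shared between Serpina3g and Serpina3f, and both values are uncertain in that respect.

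The promoter windows of Serpina3g, of Igtp and Gbp2 (interferon-induced GTPases described next) and of Ccl3 (the marker that fell) are shown side by side. Igtp and Gbp2 had positive log2 changes and were not called. These windows were chosen for display and do not stand for all called genes. The sequences are RefSeq's for GRCm38.p6, from 250 bases before to 50 after the transcript start, 5′ to 3′ on the gene's strand, at chr12:104235897-104236196 (plus) for Serpina3g, chr11:58199306-58199605 (plus) for Igtp, chr3:142620413-142620712 (plus) for Gbp2 and chr11:83649329-83649628 (minus) for Ccl3. Capitals mark matches, on either strand, to 3 sets of letters. TTTC and TTTC with 2 bases of any kind between them stood for the interferon-stimulated response element (ISRE), TTC and GAA with 3 between them for the gamma-activated site (GAS), and GGG and TTTCC with 2 between them for the kB site.
Serpina3g: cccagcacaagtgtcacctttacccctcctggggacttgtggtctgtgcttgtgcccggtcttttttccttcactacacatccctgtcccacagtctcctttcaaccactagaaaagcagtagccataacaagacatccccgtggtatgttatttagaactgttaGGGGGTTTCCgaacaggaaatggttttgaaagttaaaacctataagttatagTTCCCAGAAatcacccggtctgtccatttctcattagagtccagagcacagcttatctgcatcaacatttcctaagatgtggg
Igtp: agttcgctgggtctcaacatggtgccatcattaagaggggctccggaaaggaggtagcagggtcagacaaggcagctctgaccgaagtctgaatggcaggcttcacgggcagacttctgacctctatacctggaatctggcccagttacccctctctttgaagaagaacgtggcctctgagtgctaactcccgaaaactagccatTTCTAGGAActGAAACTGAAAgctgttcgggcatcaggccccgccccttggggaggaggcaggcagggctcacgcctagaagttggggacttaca
Gbp2: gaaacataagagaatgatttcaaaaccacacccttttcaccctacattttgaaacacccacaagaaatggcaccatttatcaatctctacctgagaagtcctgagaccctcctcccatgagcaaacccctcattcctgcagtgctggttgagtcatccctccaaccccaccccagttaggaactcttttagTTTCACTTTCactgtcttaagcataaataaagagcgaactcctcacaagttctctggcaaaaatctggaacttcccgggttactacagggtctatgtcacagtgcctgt
Ccl3: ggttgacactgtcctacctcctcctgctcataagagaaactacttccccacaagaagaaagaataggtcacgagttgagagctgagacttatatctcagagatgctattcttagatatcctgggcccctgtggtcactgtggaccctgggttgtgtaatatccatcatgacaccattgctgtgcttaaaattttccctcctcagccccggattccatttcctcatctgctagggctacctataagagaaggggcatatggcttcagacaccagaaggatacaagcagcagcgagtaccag
The Serpina3g window held a kB match at -85 and a GAS match at -33. Positions are counted from the RefSeq start of the window. The start in GENCODE, which gave the gene coordinates here, lies 98 bases downstream of it for Serpina3g and 23 bases downstream for Ccl3. For Gbp2 the GENCODE start lies 61 bases upstream of the RefSeq start. In the Igtp window a GAS match at -45 stood just before an ISRE match at -34 on the other strand, without overlap. The Gbp2 window held an ISRE match at -59, which is just inside the gene by the GENCODE start. The Ccl3 window held none of the 3 sets of letters. Among all 32851 promoter windows, 3.44% held the ISRE letters, 8.3% the GAS letters and 1.63% the kB letters. The ISRE letters stood in 9 and the GAS letters in 6 of the 11 windows found for 10 of the interferon-induced GTPases. Of the 30 called genes 20 had a window in the table, and Iigp1, the called GTPase described next, had none. None of their windows held the ISRE letters, which says little for so few windows at a share of 3.44%. The GAS letters stood in 3 of 8 windows of genes called higher and in 0 of 15 windows of genes called lower. The kB letters stood in 1 window of each set. A match is a description of letters and not of binding.

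Among the interferon-induced GTPases, Iigp1 rose and every other member tested had a positive log2 change. Iigp1 (chr18:60376027-60392634, plus strand), an immunity-related GTPase that attacks the vacuoles of intracellular pathogens, had 296, 333 and 191 CPM in the 3-week libraries and 143, 163 and 148 CPM in the 4-week libraries. At steady state it had a lowest, median and highest value of 10.3, 42.8 and 80.5 CPM. The groups did not overlap, and the log2 change was 2.09 ± 0.38 (SE, n = 6 and n = 8, edgeR adjusted p = 0.0311; 2.15 with the GC and length offsets). Its call held in 6 of 14 fits that left out a library, and was lost without steady-state replicate 7 (2.04, adjusted p = 0.0524).

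All 15 interferon-induced GTPases tested had a positive log2 change, against 51.1% of all genes tested. At an unadjusted p under 0.05, 8 of them were higher, against 905 of all 11067 genes tested. Of the 15, 1 was called, against 0.271% of all genes tested. Their median log2 change was 0.87, against 0.02 for all genes tested, and 0.78 against -0.05 with the GC and length offsets. Igtp (Irgm3), which regulates the other members of the family, had 334, 282 and 245 CPM at 3 weeks and 105, 157 and 163 CPM at 4 weeks, against 41.1, 66.5 and 162 CPM (lowest, median, highest) at steady state. Its log2 change was 1.38 ± 0.30 (edgeR adjusted p = 0.0584), and it was called with the GC and length offsets (1.33, adjusted p = 0.0452). Gbp2, a guanylate-binding protein, had a median of 128 CPM early and 28 CPM at steady state (log2 change 1.74 ± 0.53, adjusted p = 0.123). Tgtp1 had medians of 184 and 98.6 CPM (0.87 ± 0.28, adjusted p = 0.129). The highest steady-state value of both Igtp and Gbp2 was that of replicate 1. Members of the family are close in sequence, Tgtp1 and Tgtp2 most of all, and their counts are uncertain for that reason.

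**Figure D2:**
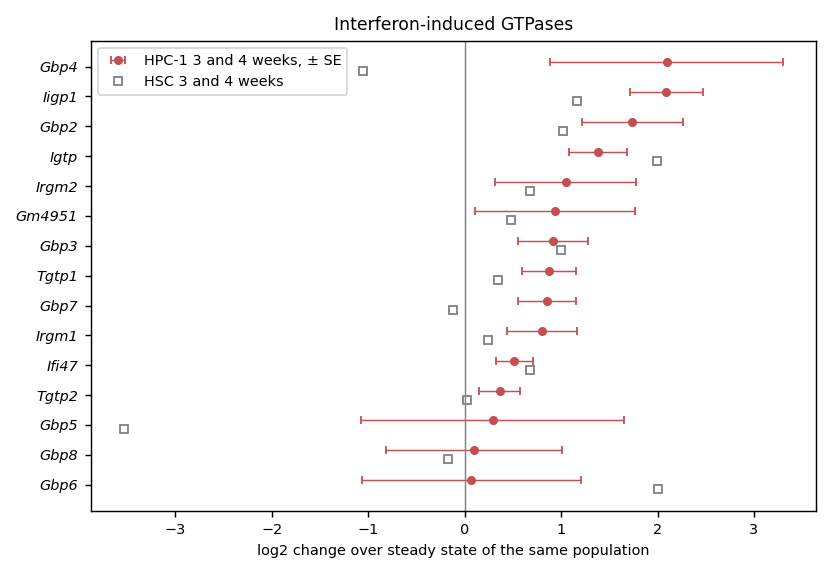
Log2 change of the 15 interferon-induced GTPases tested, for HPC-1 at 3 and 4 weeks over HPC-1 steady state (red points, bars are SE) and for HSC at 3 and 4 weeks over HSC steady state (open squares). All 15 HPC-1 points are above 0, with a median of 0.87, and Iigp1 is the called member.

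Other interferon-related lists had lower medians. The median log2 change of 31 genes of the type I interferon response was 0.03, with 16 of 31 positive and 0 called, and it was 0.47 for 3 weeks alone and -0.48 for 4 weeks alone. Among 15 interferon receptors and regulators it was 0.64, and 0.08 with the GC and length offsets. For 18 genes of the immunoproteasome and MHC class I it was 0.30 and 0.16, and for 7 MHC class II genes 0.34 and 0.04. The MHC class II median was -0.54 for 3 weeks alone and 0.96 for 4 weeks alone. No gene of these lists was called, against 0.271% of all genes tested, which says little for lists of this size.

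A further 6 genes were called higher. Ubqln1, a ubiquilin that carries ubiquitinated proteins to the proteasome (chr13:58176156-58215653, minus strand), had 220, 91.1 and 267 CPM at 3 weeks and 65.4, 65.9 and 187 CPM at 4 weeks, against 5.66, 27.5 and 39.3 CPM (lowest, median, highest) at steady state. The groups did not overlap, and the log2 change of 2.28 ± 0.38 (edgeR adjusted p = 0.0219) was the largest rise among the called genes. Its call held in 10 of 14 fits that left out a library and with the GC and length offsets (1.90, adjusted p = 0.0391). Gpat4, an acyltransferase of glycerolipid synthesis, had medians of 49.1 and 10.3 CPM (log2 change 2.22 ± 0.40, adjusted p = 0.0311). Ctnnb1 (beta-catenin, of Wnt signalling and cell adhesion) had medians of 156 and 61.2 CPM (1.38 ± 0.25, adjusted p = 0.0311). Ppp2r1b, a scaffold subunit of protein phosphatase 2A, and Ubap2l, a ubiquitin-binding protein of stress granules, had log2 changes of 1.44 and 1.54. With the GC and length offsets Gpat4, Ctnnb1, Ppp2r1b and Ubap2l kept their direction and were no longer called, at log2 changes of 1.89, 0.96, 1.08 and 1.09. In the 14 fits that left out a library, Gpat4 kept its call in 5, and Ctnnb1, Ppp2r1b and Ubap2l in 4 each.

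Mcm5, a subunit of the replicative helicase, was the member called among 31 DNA replication genes. It had 172, 171 and 316 CPM at 3 weeks and 149, 72.8 and 228 CPM at 4 weeks, against 33.4, 55.3 and 95.2 CPM (lowest, median, highest) at steady state, so that 4 weeks replicate 2 lay within the steady-state range. The log2 change was 1.45 ± 0.27 (edgeR adjusted p = 0.0311), and 0.91 with the GC and length offsets (adjusted p = 0.149), and the call held in 5 of 14 fits that left out a library. Mcm6 had medians of 832 and 275 CPM (1.23 ± 0.30, adjusted p = 0.0825), and Mcm3 of 231 and 83.2 CPM (1.37 ± 0.37, adjusted p = 0.101). In all, 21 of the 31 genes were positive. At an unadjusted p under 0.05, 15 were higher, against 905 of all 11067 genes tested. Their list had a median log2 change of 0.63, or 0.35 with the GC and length offsets. The 30 mitosis genes had a median of 0.36 (0.24 with the offsets), with 0 called and 1 at an unadjusted p under 0.05. The 19 G1 cyclins, kinases and inhibitors had a median of 0.41, and 0.17 with the offsets.

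Ccl3, the chemokine MIP-1alpha, fell in the early window, to 65.9 ± 46.8 CPM against 569 ± 366 CPM at steady state (SD, n = 6 and n = 8). It lies on the minus strand at chr11:83647844-83649355. It had 29.5, 49.2 and 8.85 CPM in the 3-week libraries and 139, 88.9 and 79.9 CPM in the 4-week libraries. At steady state the lowest, median and highest values were 181, 544 and 1080 CPM. The groups did not overlap, and steady state itself was split, with replicates 1, 4 and 7 at 181 to 212 CPM and the other 5 libraries at 390 CPM or more. The log2 change was -3.32 ± 0.62 (SE, n = 6 and n = 8, edgeR adjusted p = 0.0311), and -2.59 with the GC and length offsets (adjusted p = 0.0391). Its call held in 5 of 14 fits that left out a library, with an adjusted p of up to 0.107, and held without steady-state replicate 7 (-3.45, adjusted p = 0.0355).

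Ccl4, the neighbouring chemokine MIP-1beta, had 37.4, 121 and 296 CPM (lowest, median, highest) early and 108, 443 and 1950 CPM at steady state (log2 change -2.67 ± 0.70, edgeR adjusted p = 0.0982). Nfkbiz, a nuclear regulator of NF-kB target genes, had medians of 9.72 and 30.4 CPM (-2.55 ± 0.66, adjusted p = 0.0953), and the activation marker Cd69 had medians of 199 and 418 CPM (-2.13 ± 0.72, adjusted p = 0.147). The list of 19 chemokine and NF-kB genes did not move as a whole: 1 was called lower, 10 were positive, and its median log2 change was 0.04. Of 19 immediate early genes, transcription factors and regulators induced within minutes of a stimulus, 18 had a negative log2 change (median -1.06, and -1.45 with the GC and length offsets). Of these 2 had an unadjusted p under 0.05 and 0 were called. Steady state was split here too. The list's mean log2(CPM + 1) was 5.885, 6.874 and 5.514 in steady-state replicates 3, 5 and 6. It was 3.502 to 4.335 in the other steady-state libraries, within the early range of 3.2 to 4.933. Nr4a1 was the most variable, at 0 to 235 CPM in the steady-state libraries and 0 to 4.94 CPM in the early libraries.

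Tceal8 and Ldhb fell with the smallest adjusted p of all genes tested. Each kept its call in 13 of 14 fits that left out a library, the exception being the fit without 4 weeks replicate 3. Tceal8, an X-linked gene related to transcription elongation factor A (chrX:136168984-136172342, minus strand), had 40.8, 37.3 and 45.5 CPM at 3 weeks and 69.1, 58.2 and 51.6 CPM at 4 weeks. Its lowest, median and highest values at steady state were 101, 154 and 187 CPM. The groups did not overlap (log2 change -1.71 ± 0.25, edgeR adjusted p = 0.0131; -1.79 with the GC and length offsets). Ldhb, the lactate dehydrogenase subunit typical of oxidative tissues (chr6:142490249-142507957, minus strand), had 25.8 to 45.1 CPM in the early window, with a median of 29.6 CPM, against 47.9, 117 and 185 CPM at steady state. These groups did not overlap either (-1.91 ± 0.28, adjusted p = 0.0131; -1.74 with the offsets).

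Serpinf1, Klk8, Emcn, Gpr171 and Il18 also fell. Serpinf1 (pigment epithelium-derived factor, a secreted serpin without protease-inhibiting activity) had 9.09, 8.23 and 0 CPM at 3 weeks and 9.78, 26.2 and 23.3 CPM at 4 weeks, against 70.2, 134 and 255 CPM (lowest, median, highest) at steady state. The groups were well apart (log2 change -3.71 ± 0.61, edgeR adjusted p = 0.0219), and the call held in 11 of 14 fits that left out a library. Klk8, a secreted serine protease, had medians of 15 and 80.8 CPM without overlap (-2.18 ± 0.34, adjusted p = 0.0157) and also kept its call in 11 of the 14. Emcn (endomucin, a sialomucin of endothelium and of stem cells) had medians of 21 and 66.7 CPM (-2.06 ± 0.38, adjusted p = 0.0311), with steady state reaching down to 21.2 CPM. Gpr171, a G protein-coupled receptor, had the highest steady-state mean of the genes called lower, with 317, 394 and 548 CPM early and 594, 859 and 1050 CPM at steady state (-1.16 ± 0.21, adjusted p = 0.0311). Il18, a cytokine that promotes interferon-gamma production, had medians of 25.8 and 93 CPM (-2.20 ± 0.45, adjusted p = 0.0453), and -1.44 with the GC and length offsets (adjusted p = 0.109). Emcn and Gpr171 kept their calls in 4 of the 14 fits each, and Il18 in 2.

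Rabgap1l, Map3k1, Anxa4 and Gng11 fell as well. Rabgap1l, a GTPase-activating protein for Rab proteins, had 150, 139 and 124 CPM at 3 weeks and 281, 238 and 157 CPM at 4 weeks, against 301, 577 and 763 CPM (lowest, median, highest) at steady state. The groups did not overlap (log2 change -1.78 ± 0.29, edgeR adjusted p = 0.0219), and the call held in 9 of 14 fits that left out a library. Map3k1, a kinase upstream of JNK, had medians of 25.3 and 60.6 CPM (-1.56 ± 0.30, adjusted p = 0.0311). Anxa4, a calcium-dependent phospholipid-binding annexin, had medians of 148 and 281 CPM (-1.23 ± 0.23, adjusted p = 0.0311), and of the 16 annexin, S100 and related genes tested it was the called member. Gng11, a G protein gamma subunit that is also a platelet gene, had medians of 20.7 and 70.6 CPM (-1.86 ± 0.37, adjusted p = 0.0409). Anxa4 and Gng11 were not called with the GC and length offsets (adjusted p = 0.0584 and 0.0911). Of the 14 fits that left out a library, Anxa4 kept its call in 4, and Map3k1 and Gng11 in 3 each.

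Both immunoglobulin heavy chain V segments among the called genes were lower in the early window. Ighv1-77 had a median of 13.5 CPM early and 60 CPM at steady state (log2 change -2.22 ± 0.39, edgeR adjusted p = 0.0311). The pseudogene Ighv1-83 had medians of 4.84 and 26.9 CPM (-2.78 ± 0.52, adjusted p = 0.0311). Both lie in the heavy chain cluster on chromosome 12, whose segments are close in sequence and share reads, and with the GC and length offsets neither was called (adjusted p = 0.124 and 0.13). The zinc finger gene Zfp931 and the non-coding transcripts Gm5111 and Gm32554 also fell, with log2 changes of -2.30, -1.79 and -2.91, and Zfp931 and Gm32554 were not called with the offsets. The non-coding transcript 5530601H04Rik, on the X chromosome, had medians of 85.3 and 189 CPM (-1.22 ± 0.24, adjusted p = 0.0408). With the offsets its adjusted p was 0.0584. Of the 14 fits that left out a library, Ighv1-77 kept its call in 6, Zfp931 and Gm5111 in 4, 5530601H04Rik in 3, and Ighv1-83 and Gm32554 in 2.

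Some calls rested on genes near absence. Kynu, an enzyme of tryptophan breakdown, had no count in any early library and 0 to 17.9 CPM at steady state, with a count in 7 of 8 libraries. With counts pooled over each group and a floor of 3 counts for the early libraries, its level was at least 64.7-fold lower, a ratio without the spread between libraries. Clu (clusterin, an extracellular chaperone) had counts in 2 of 6 early libraries, at most 0.644 CPM, and 3.07 to 9.9 CPM at steady state. The long non-coding RNA Gm10482 had at most 0.461 CPM early and 1.18 to 9 CPM at steady state. Gm11837, annotated as an antisense transcript, had a count in 1 early library and 1.9 to 30.2 CPM at steady state. The strand setting of the counting is not given in the sources used here, so reads of Gm11837 and of a gene on the opposite strand cannot be told apart. With the GC and length offsets Kynu and Gm11837 were no longer called (adjusted p = 0.0584 and 0.0825). Without single libraries Kynu and Clu kept their calls in 3 of 14 fits and Gm11837 in 2, and Gm10482 was not called in any of the 8 such fits in which it was tested.

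**Figure D3:**
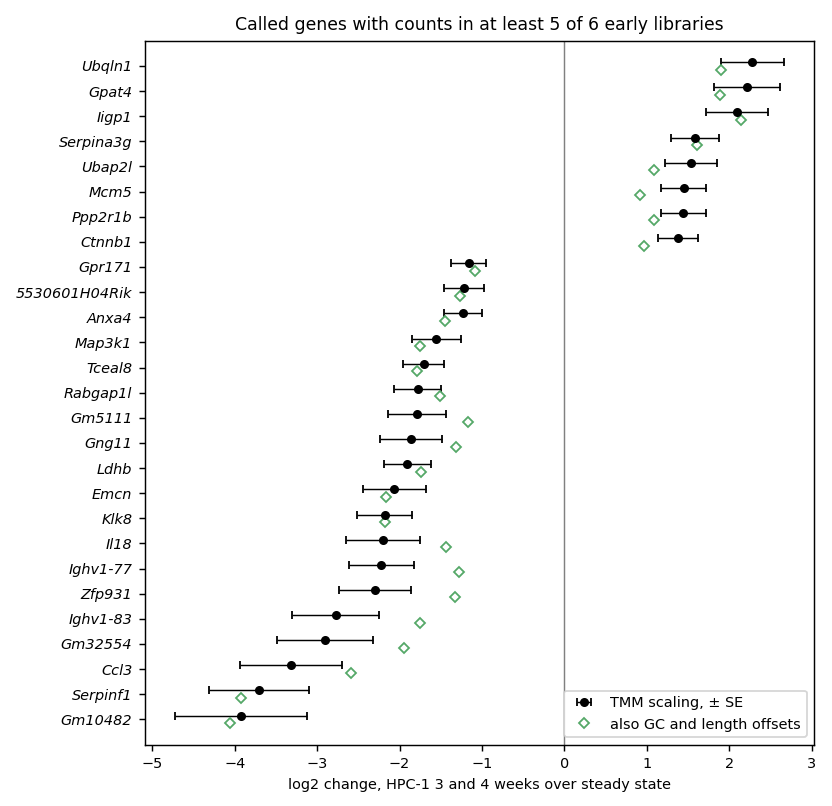
Log2 change of 27 called genes, HPC-1 at 3 and 4 weeks over steady state, with TMM scaling (black points, bars are SE) and with added GC and length offsets (open diamonds); the 3 called genes with counts in fewer than 5 early libraries are left out. All 27 keep their sign, from -3.93 for Gm10482 to 2.28 for Ubqln1.

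Metabolic gene lists differed in direction. The libraries' GC content and mitochondrial share also differed between the groups, so medians with the GC and length offsets are given beside. Of 18 glycolysis genes, 14 were positive, and 12 were higher at an unadjusted p under 0.05 (905 of all 11067 genes tested). The glycolysis list had a median log2 change of 0.66 (0.51 with the GC and length offsets) and 0 called. Pkm (pyruvate kinase) had 127, 252 and 515 CPM (lowest, median, highest) early and 46.2, 65.7 and 207 CPM at steady state (1.42 ± 0.35, edgeR adjusted p = 0.0825). Pfkl (phosphofructokinase) had medians of 56.3 and 6.86 CPM (2.85 ± 0.60, adjusted p = 0.0541), and Eno1 (enolase) of 627 and 187 CPM (1.26 ± 0.35, adjusted p = 0.108). Steady-state replicates 1 and 4 held the highest steady-state values of Pkm and Eno1. The 26 genes of Myc and ribosome biogenesis had a median of 0.70 (0.50 with the offsets), with 22 positive and 0 called.

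Of 36 nuclear genes of oxidative phosphorylation, 27 had a lower level at an unadjusted p under 0.05 (1171 of all 11067 genes tested) and 0 were called. Their median log2 change was -0.73, and -0.15 with the GC and length offsets. Ndufa4, a subunit of cytochrome c oxidase, had 560, 652 and 1100 CPM (lowest, median, highest) early and 732, 1470 and 2580 CPM at steady state (-1.14 ± 0.33, edgeR adjusted p = 0.118), but -0.42 with the offsets. Atp5b, the beta subunit of ATP synthase, ran the other way, with medians of 1490 and 452 CPM (1.09 ± 0.31, adjusted p = 0.109; 1.04 with the offsets). For the 10 mitochondrially encoded genes the median was -1.04, and 0.08 with the offsets, so that its sign turned.

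**Figure D4:**
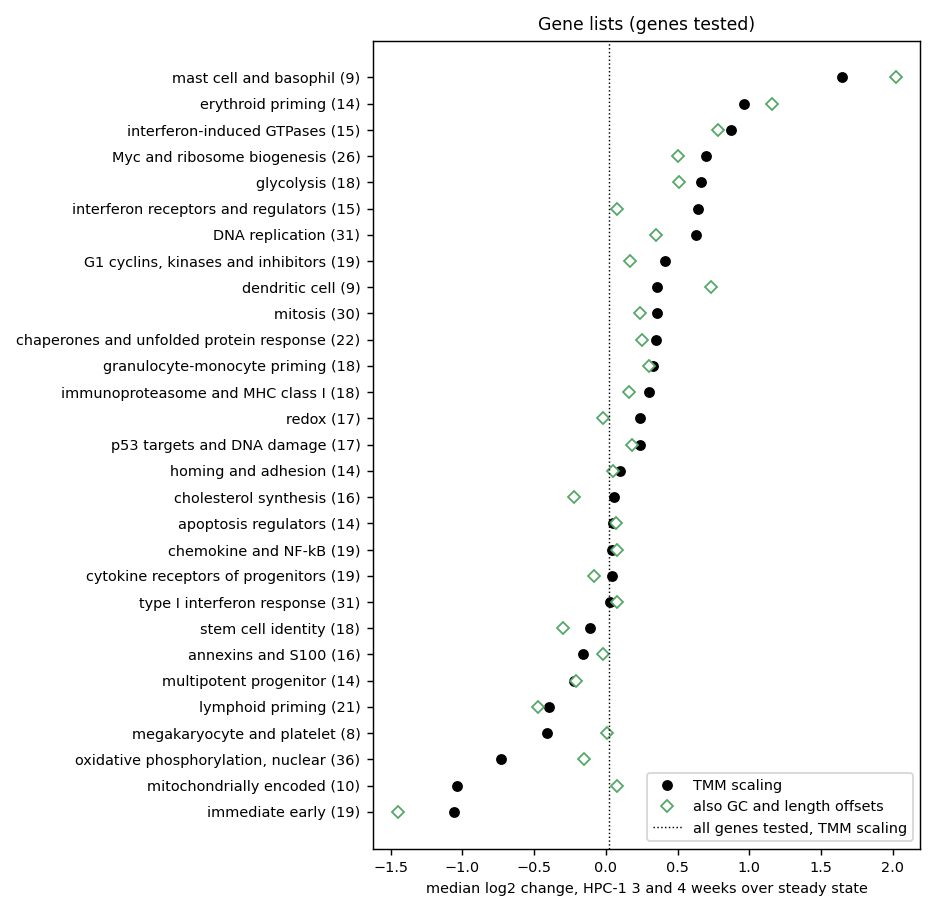
Median log2 change of the gene lists with at least 8 genes tested (number in brackets), HPC-1 at 3 and 4 weeks over steady state, with TMM scaling (black points) and with added GC and length offsets (open diamonds); the dotted line is the median of all genes tested, 0.02. Interferon-induced GTPases (0.87 and 0.78) and immediate early genes (-1.06 and -1.45) keep their place, while mitochondrially encoded genes move to 0.08.

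Lineage genes showed no called member apart from Gng11 and Clu, which stand on the platelet and the stem cell ageing lists. With 0.271% of all genes tested called, few calls could fall on lists of this size, and their absence says little. The median log2 change was 1.65 over 9 mast cell and basophil genes, 7 of them positive, and -1.97 over 6 neutrophil genes, 1 of them positive (2.02 and -0.61 with the GC and length offsets). The mean log2(CPM + 1) of the 10 neutrophil markers was nearly the same in both groups, 2.39 early and 2.33 at steady state. Steady state was split, with 4.66, 5.174 and 3.234 in replicates 2, 5 and 6 and 0.247 to 1.568 in the others. The summed level of the 10 mast cell and basophil markers was 370, 1670 and 2210 CPM (lowest, median, highest) early and 170, 378 and 1080 CPM at steady state. Tpsb2 (a mast cell tryptase) had 19, 208 and 0 CPM at 3 weeks and 312, 293 and 450 CPM at 4 weeks, and at most 13.6 CPM at steady state (log2 change 5.76 ± 1.19, edgeR adjusted p = 0.0504). Cma1 (chymase) was high in the same early libraries, at 0 to 511 CPM, and at 0 to 46.9 CPM at steady state (4.64 ± 1.31, adjusted p = 0.11). Both are members of protease families with close copies. Fcer1a and Cpa3 had medians of 57.2 and 706 CPM early and 1.21 and 198 CPM at steady state, and Mcpt8, a basophil protease, medians of 44 and 48.6 CPM.

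Of 14 erythroid genes 13 were positive, with a median log2 change of 0.96, and 2 were higher at an unadjusted p under 0.05. The summed level of the 17 erythroid genes listed was nearly the same in both groups. It was 989, 2330 and 3590 CPM (lowest, median, highest) early and 952, 2270 and 3880 CPM at steady state. Gata1, the erythroid and mast cell transcription factor, had 23.3 to 62.7 CPM early and 0.236 to 17.4 CPM at steady state without overlap (2.56 ± 0.58, edgeR adjusted p = 0.0702). Mpo (myeloperoxidase, of granulocyte-monocyte progenitors) had medians of 1050 and 211 CPM (1.68 ± 0.41, adjusted p = 0.0825). Selp (P-selectin) had 15.2 to 134 CPM early and 0 to 14.6 CPM at steady state (3.04 ± 0.70, adjusted p = 0.0768). The granulocyte-monocyte, megakaryocyte and lymphoid lists did not rise as the erythroid list did. Of 18 granulocyte-monocyte priming genes 12 were positive, with a median of 0.33, and -0.06 for 4 weeks alone. Of 8 megakaryocyte and platelet genes 4 were positive, with a median of -0.41. Of 21 lymphoid priming genes 18 were negative, with a median of -0.40. Il12a had medians of 368 and 885 CPM (-1.12 ± 0.25, adjusted p = 0.0652) and the homing receptor Ccr9 of 0.644 and 18 CPM (-4.13 ± 1.26, adjusted p = 0.123).

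Within the early window no gene was called between 4 and 3 weeks (0 of 12512 tested, 0%; edgeR quasi-likelihood test), with 434 genes at an unadjusted p under 0.05 and 2 called by DESeq2. The values of both marker genes lay farther from steady state at 3 than at 4 weeks. Serpina3g had log2 changes of 2.07 at 3 weeks and 0.85 at 4 weeks, Iigp1 2.45 and 1.62, and Ccl3 -4.51 and -2.66. Tceal8 had -2.03 and -1.44. These pairs share the steady-state libraries and their difference was not called.

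Between the early window and weeks 5 to 16 no gene was called by the same test (0 of 12306, 0%), with 655 genes at an unadjusted p under 0.05 and 7 called by DESeq2. Median levels followed different courses over the weeks. Serpina3g had medians of 231 CPM at steady state, then 1020 and 436 CPM at 3 and 4 weeks, 220, 194 and 288 CPM at 5, 6 and 8 weeks, and 307, 487 and 387 CPM at 10, 13 and 16 weeks. A single library at 6 weeks reached 888 CPM. Over the same times Tceal8 had 154 CPM at steady state, then 40.8, 58.2, 55.1, 90.5, 126, 110, 106 and 155 CPM, so that the 16-week median was at the steady-state level. Ccl3 had 544 CPM at steady state, then 29.5, 88.9, 614, 39.7, 496, 318, 47.3 and 192 CPM. The Ccl3 medians at 6 and 13 weeks were as low as those of the early window, and those at 5 and 8 weeks were near steady state. The early minus later log2 changes of Serpina3g, Tceal8 and Ccl3 were 1.01, -1.20 and -2.07 (edgeR adjusted p = 0.728, 0.432 and 0.92).

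**Figure D5:**
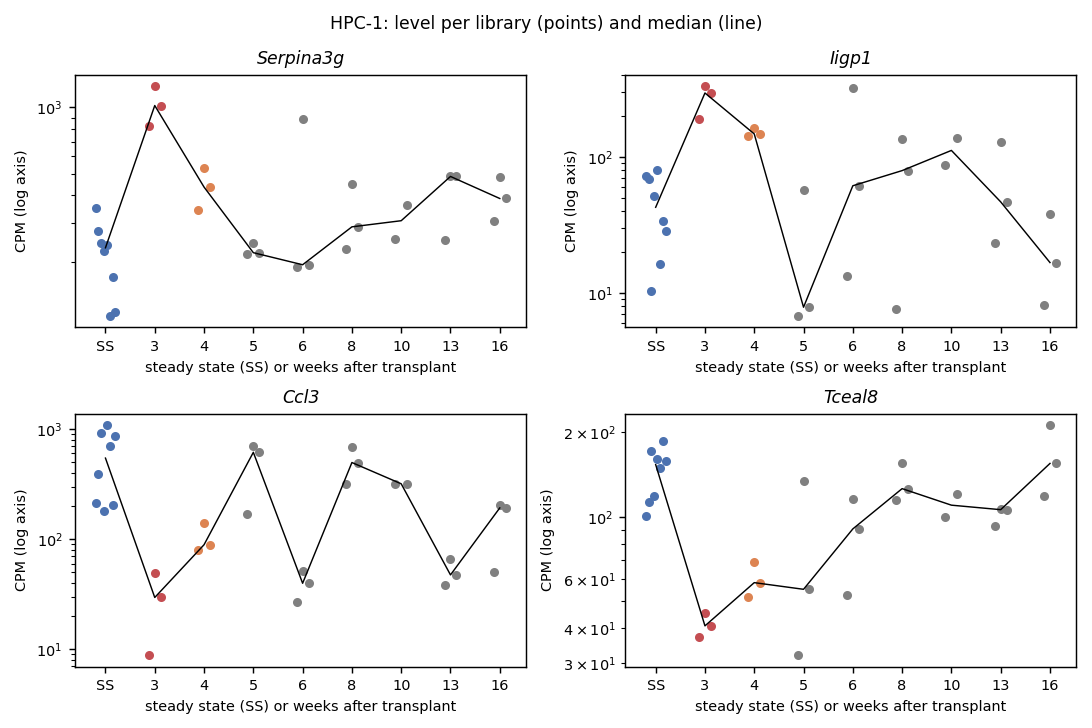
Level in CPM (log axis) of Serpina3g, Iigp1, Ccl3 and Tceal8 in HPC-1 at steady state (SS, blue) and at each week after transplant (3 weeks red, 4 weeks orange, later weeks grey); points are libraries and the line joins the medians. Serpina3g and Iigp1 peak at 3 weeks, at medians of 1020 and 296 CPM, and Ccl3 is low at 3, 4, 6 and 13 weeks.

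The early effect in HPC-1 was tested against the early effect in HSC, the stem cells of the same transplant series, with 6 early and 8 steady-state HSC libraries. HPC-1 and HSC libraries of the same week and replicate have close description numbers and may share animals or a sort, which the labels do not state. The fit took all libraries as independent, and pairing between the populations was not tested. Of 12534 genes 2 differed (0.016%; edgeR interaction contrast), and both were called in HSC and not in HPC-1. They fall outside the rule for naming genes and were named after their values were seen. Rap1b, a small GTPase of integrin activation, had 445, 496 and 599 CPM (lowest, median, highest) in early HPC-1 and 402, 557 and 619 CPM in steady-state HPC-1, while in HSC it had 1650, 1990 and 3290 CPM early and 730, 884 and 1240 CPM at steady state. The difference of the effects was -1.46 ± 0.25 (adjusted p = 0.0172). Lax1, a membrane adaptor that dampens antigen receptor signalling, had a median of 25.1 CPM in early and 19.7 CPM in steady-state HPC-1. In HSC it had no count in any early library and a median of 29.3 CPM at steady state. With counts pooled over each group and a floor of 3 counts, it was at least 354-fold lower early, a ratio without the spread between libraries. Its interaction was called (adjusted p = 0.0172), and its fitted size depends on the zero counts.

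None of the 30 genes called in HPC-1 had a called interaction with HSC. Serpina3g had a log2 change of 1.42 in HSC (edgeR adjusted p = 0.0937), at medians of 2380 CPM early and 589 CPM at steady state, and its interaction was 0.18. Rabgap1l and Clu, lower in early HPC-1, had HSC changes of 0.11 and 1.23, with interactions of -1.88 and -6.40 (adjusted p = 0.0866 and 0.0798). Gpr171 fell in HSC too, with a log2 change of -1.36 (adjusted p = 0.0188). Ccl3 was near absent from HSC, at no more than 14.1 CPM early and 36.9 CPM at steady state.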

How the data were processed

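The deposited values are raw read counts per gene, which the authors made for 95 libraries. The submitters' processing notes name Trimmomatic 0.36, HISAT2 2.0.5, Picard and featureCounts as tools and GRCm38 (mm10) as the genome build. Strand setting and annotation release are not given in the sources used here. Gene positions come from GENCODE M21, which held 99.6% of the 53465 gene IDs; 3433 entries have no symbol.

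Groups were taken from titles, and 2 libraries whose titles read 10k were placed in no group. The edgeR expression filter, TMM scaling and the quasi-likelihood F test of edgeR were used. Benjamini-Hochberg adjustment ran over all genes of a comparison, with calls at an adjusted p under 0.05. SE was taken from the F statistic. In the first comparison only the 14 HPC-1 libraries were fitted, the later-weeks comparison used all HPC-1 libraries with a group (17 from weeks 5 to 16), and the HSC comparison used 4 groups. Library measures were compared by exact permutation over 3003 splits. The procedure was tested on simulated data.

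The genes named are up to 12 called genes per direction with the largest log2 change, a mean of at least 10 CPM in the higher group and at least 80% of each group's libraries beyond the midpoint of the group means, with 6 per direction in the other comparisons. To these were added the sort markers, Serpina3g, Ccl3 and up to 4 members with the smallest p of each list described; others were named after their values were seen, among them called genes outside the rule, genes cited as low or as marker checks, and list members shown for contrast. The comparison and the 41 gene lists (658 of their 660 genes were measured) were chosen with earlier results of these data known.

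Replicate numbers were checked for pairing within HPC-1. Deviations of same-numbered libraries correlated at -0.185 to 0.099 over 9 pairs, none above 0.1, so the numbers were not taken to pair HPC-1 samples. Pairing of HPC-1 with HSC libraries was not checked. Alternatives were RLE scaling, no filter, DESeq2, limma voom with sample weights, replicate and description-number blocks, other groupings, a mean of at least 10 CPM, and leaving out each library. After the data were seen, GC and length offsets (smoothing span 0.3 over transcripts) and the mitochondrial share as a covariate were added. Computation used R 4.3.3, edgeR 4.0.16, limma 3.58.1, DESeq2 1.42.0, the package data.table (1.17.8), Python 3.11.15 and matplotlib 3.10.9.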

Additional observations from a re-analysis of the deposited data

Results flagged for a closer look

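In 7 of 72 groups of values examined, 1 library lay far from the rest of its group (a Dixon test at the 95% level, on log2 CPM for genes); chance flags about 1 in 20 groups. In the early window these were 3 weeks replicate 3 for Serpinf1 (0 CPM, against 8.23 to 26.2 CPM in the others), Ighv1-83 (0.718, against 4.29 to 8.75 CPM) and Il18 (3.35, against 21.6 to 32.9 CPM), and 3 weeks replicate 2 for Ighv1-77 (30.2, against 11.5 to 15.2 CPM) and Gm11837 (0.766, with no count in the others). At steady state they were replicate 3 for Klk8 (39.6, against 76.5 to 111 CPM) and replicate 8 for Ubqln1 (5.66, against 20.5 to 39.3 CPM). The library 3 weeks replicate 3 had the fewest genes with a count of the 14, 11971.

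The early effect differed between HPC-1 and HSC for 2 genes by the interaction test. The HPC-1 effect minus the HSC effect was -1.46 for Rap1b and a fitted 9.96 for Lax1, which had no count in any early HSC library (edgeR adjusted p = 0.0172 for both).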

How the results depend on the processing

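The count of called genes in the early window against steady state moved from 30 to 914 with DESeq2 (24 of the 30 among them), to 674 with voom and sample weights (all 30) and to 48 with a mean of at least 10 CPM (25 of the 30). It was 6 with all HPC-1 libraries in the fit, 9 for 3 weeks alone, 5 for 4 weeks alone and 0 with the description number block. Description numbers ran from 1 to 19 in the early window and from 10 to 94 at steady state. In blocks of 12 numbers, only steady-state replicates 1 and 2 shared a block with early libraries. The early effect in that fit rested on these steady-state libraries. Group and description number largely run together and cannot be told apart. The replicate block gave 0 as well, with numbers that did not pair the samples. Of the alternatives added after the data were seen, the GC and length offsets gave 17 (15 of the 30) and the mitochondrial share as a covariate 2 (1 of the 30). Without single libraries the count ran from 0 to 382. RLE scaling, no filter and weeks as separate groups gave 30, 28 and 44. None of the 30 called genes changed direction under these alternatives. Nor did 21 genes that were not called and whose change is given, of which 19 were called under at least 1 alternative, Cma1 and Ccr9 being the others.

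For 4 against 3 weeks the count of 0 became 2 with DESeq2 and ran from 0 to 2 without single libraries. For the early window against weeks 5 to 16 it became 36 with no filter and 7 with DESeq2, and ran from 0 to 2. For HPC-1 against HSC the count of 2 became 57 with DESeq2 and 0 with the replicate block, which did not pair HPC-1 with HSC libraries. Without single libraries it ran from 2 to 9, the 9 without HSC steady state replicate 1. With 3990766 to 5929923 counts a library, a level of a few CPM rests on few counts, and a gene with no call is not shown to be equal in both groups.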
